A study of Homo sapiens with 2 samples.

Results

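Mitochondrial ribosomal protein (MRP) genes were examined in oral squamous cell carcinoma (OSCC) cells with and without added DLEU1, a long noncoding RNA. The genes were defined by name, as MRPL or MRPS followed by digits and at most a single capital letter. This left out pseudogene and antisense names. The set was chosen with earlier results of these data known. There were 77 such genes among the 43317 gene names on the array. Ca9-22 is an OSCC cell line. Cells carried a lentiviral vector expressing DLEU1 or a control vector, each selected for 2 weeks in blasticidin, given as 6 mg/ml. The control was an empty vector of the same kind. Whether each culture was a pool or a clone of infected cells was not stated. Cy3 label was put on 100 ng of total RNA from each culture, and each was read on an array of its own. With 1 array per group no difference was tested, and every value is a description of these 2 arrays. In RNA from whole cultures, fewer cells of a kind and less RNA per cell cannot be told apart.

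The mitochondrial ribosome, or mitoribosome, translates the few proteins that mitochondrial DNA encodes, all of them subunits of the oxidative phosphorylation complexes. Its ribosomal RNA is made inside the mitochondrion, whereas its proteins are encoded in the nucleus, translated in the cytosol and imported. MRPL genes are named for the large subunit, which joins amino acids, and MRPS genes for the small subunit, which reads the mRNA. Many of the proteins have a bacterial homologue and the others occur only in mitochondria.

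A level is the log2 processed signal minus that array's 75th percentile over all non-control probes, so that 0 is the 75th percentile. A difference is the DLEU1 vector level minus the control vector level, and a gene was counted as lower or higher from a 2-fold difference, which is 1 on this scale. The SD of the difference over repeated spots of a probe was 0.0797, taken over 282 probes, and covers the array measurement only. Where 2 levels of a gene are given, the first is the control array's. DLEU1 itself stood at 3.17 and 5.91 on its brightest probe, so it was 2.74 higher in the culture labelled as carrying it. Its other 2 probes, both dim, were 0.85 and 0.54 higher. All 6 epithelial markers were detected on both arrays. KRT5 (6.89 and 8.99), KRT14 (4.56 and 7.40), KRT17 (3.60 and 6.69) and CDH1 (4.25 and 5.29) were at least 2-fold higher, TP63 gave 0.96, and EPCAM gave -0.78 (6.22 and 5.44). Of 6 markers of other cell types, PECAM1, COL3A1 and CD3E, of endothelium, fibroblasts and T cells, were detected on neither array. The leukocyte marker PTPRC (-1.74 and -1.28) and the endothelial marker CDH5 (-2.14 and -2.73) were detected on both at low levels. All 20 genes of a proliferation list were at least 2-fold lower with the DLEU1 vector (median difference -2.78). Of all genes detected on both arrays 9.78% were. COL1A1, a fibroblast marker, was higher (0.47 and 4.47). The part of these differences in the results on MRP genes was not tested.

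Probes behind several of the results are shown as the 60 bases printed on the array, with positions in hg19. The first 4 belong to MRPL39, MRPL21, MRPL37 and MRPS15, which lay among the largest differences, and the last 2 show how far both MRPL12 probes read the same bases. Capitals mark the 48 bases that the MRPL12 probes share. The MRPL21 probe is given over a longer span than its own length, chr11:68658831-68660384, and so joins separated blocks of the gene. The others lie at chr21:26965191-26965250 (minus strand), chr1:54678253-54678312 (plus strand), chr1:36921894-36921953 (minus strand), chr17:79674001-79674060 and chr17:79673989-79674048 (both plus strand), in the order printed.
MRPL39: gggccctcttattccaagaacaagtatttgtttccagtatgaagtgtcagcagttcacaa
MRPL21: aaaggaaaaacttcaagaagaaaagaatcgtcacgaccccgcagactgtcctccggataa
MRPL37: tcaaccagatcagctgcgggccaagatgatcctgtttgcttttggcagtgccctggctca
MRPS15: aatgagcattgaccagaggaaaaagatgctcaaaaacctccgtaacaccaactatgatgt
MRPL12: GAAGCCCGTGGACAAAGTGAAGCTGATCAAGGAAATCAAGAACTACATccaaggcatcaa
MRPL12: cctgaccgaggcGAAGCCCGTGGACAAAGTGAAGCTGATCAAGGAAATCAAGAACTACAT

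MRP genes were lower with the DLEU1 vector nearly throughout. All 77 were detected on both arrays, and 76 had a difference below 0, against 54.2% of the 20246 genes detected on both. For 74 of them the difference was larger than the spot SD, a count that was not made over all genes. At least 2-fold lower were 24 MRP genes, or 31.2%, against 9.78% of all genes. No MRP gene was at least 2-fold higher, against 9.18% of all genes. The median MRP difference was -0.83, which is 1.78-fold lower, with quartiles of -1.02 and -0.44. The median over all genes was -0.07, with quartiles of -0.52 and 0.41. The SD over genes was 0.38 for the MRP genes and 0.90 for all genes.

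**Figure D1:**
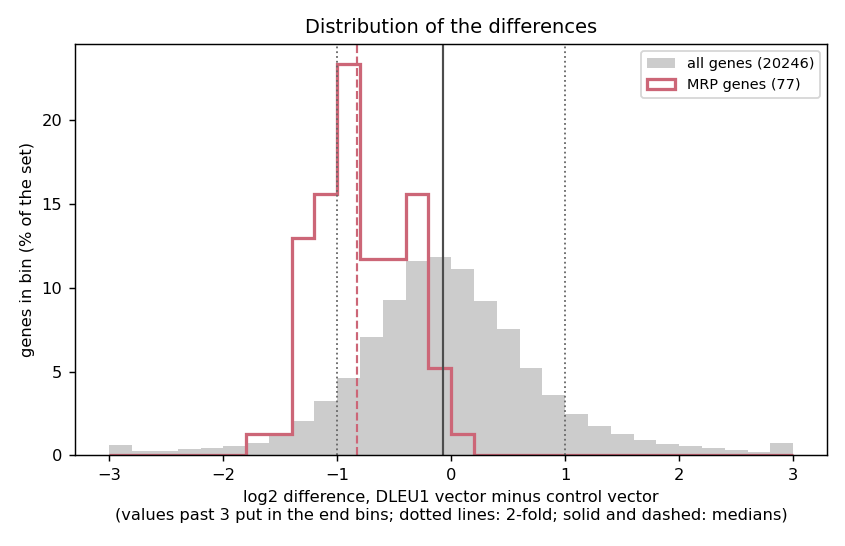
Log2 difference, DLEU1 vector minus control vector, on the x axis and the share of genes per bin in percent on the y axis, for 77 MRP genes (red outline) and 20246 genes detected on both arrays (grey). The MRP genes lie between -1.62 and 0.00 around a median of -0.83, to the left of the median of -0.07 over all genes.

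The background differed with brightness. The median level over the MRP genes was 4.99 on the control array and 4.05 on the DLEU1 array. Among the 3468 genes at or above the lower quartile of the MRP genes' mean levels, 11.5% were at least 2-fold lower and the median difference was -0.26. Of these 3468 genes, 2275 had a difference below 0 and 185 were at least 2-fold higher. Within the MRP genes, Spearman's rho of difference with mean level was -0.02 over 77 genes that share both arrays. The count of 24 depended on the scaling. It was 10 (13% of the MRP genes) after loess or quantile normalization, where 8.16% and 8.64% of all genes were at least 2-fold lower, and 51 with spike-in scaling, where 21.4% were.

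The lowest difference belonged to MRPL39, a mitochondria-specific protein of the large subunit. It stood at 5.07 on the control array and 3.45 on the DLEU1 array, which is 3.07-fold lower (difference -1.62). It was the only member (1.30%) at least 3-fold lower, against 3.31% of all genes. MRPL39 passed that limit by less than the spot SD and fell short of it under 4 alternatives. Its difference was -1.51 with the percentile over detected probes, -1.42 with quantile normalization, -1.41 with neighbouring spots taken off and -1.39 with loess. MRPL21, a homologue of a bacterial large subunit protein, followed at 7.11 and 5.68, a difference of -1.44. MRPL37, which is mitochondria-specific, stood at 5.17 and 3.78, a difference of -1.38. Both MRPL37 probes gave this difference, one of them the probe printed above, at a lower signal (4.44 and 3.06).

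In the stalk of the large subunit, where translation factors bind, MRPL11 and MRPL12 were lower and MRPL10 differed little. MRPL11, at the stalk base, stood at 5.29 and 4.04, a difference of -1.25. MRPL12, which forms the mobile stalk, stood at 5.05 and 3.85, a difference of -1.20. Its other probe, which shares most of its bases, gave -1.26. MRPL10, which holds the MRPL12 copies to the ribosome, stood at 4.91 and 4.74, a difference of -0.17.

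Of the 3 genes of the peptidyl transferase core, MRPL3 (5.23 and 4.12) and MRPL4 (6.68 and 5.66) were at least 2-fold lower. Their differences were -1.11 and -1.02, but -0.87 and -0.76 after loess and -0.90 and -0.81 after quantile normalization, where neither passed the limit. MRPL2, the remaining member of this group, gave -0.70 on a dim probe (0.79 and 0.09).

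Around the exit of the polypeptide tunnel, 3 of 6 genes were at least 2-fold lower and the group median was -0.97. MRPL24 stood at 4.94 and 3.61 (difference -1.33), and MRPL47 at 6.29 and 5.09 (difference -1.20). MRPL22 stood at 4.99 and 3.98, a difference of -1.01 that lies just past the 2-fold limit. Its probe was printed 10 times, with differences from -1.52 to -0.87, and 1 of those spots lay in a strip of the DLEU1 array where lit spots were lost. The difference without the strip was -0.96. MRPL45, which ties the mitoribosome to the inner membrane, was the least different of the group at 5.61 and 5.07 (difference -0.53), and its other probe gave -0.56.

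The central protuberance, the top of the large subunit, had 4 of 8 genes at least 2-fold lower and a median of -0.91. MRPL52 stood at 5.31 and 4.04 (difference -1.27). MRPL46 stood at 3.95 and 2.68 (difference -1.27). MRPL18 stood at 6.62 and 5.36 (difference -1.26). All 3 had a wider gap between the arrays than MRPL38, at 3.35 and 2.33 (difference -1.02). A second MRPL38 probe near background gave -0.09, so the MRPL38 value rests on its bright probe. The other 4 genes were MRPL27 (-0.80), MRPL55 (-0.80), MRPL40 (-0.67) and MRPL48 (-0.46).

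Elsewhere in the large subunit, MRPL9 (6.28 and 5.05, difference -1.22), MRPL32 (5.65 and 4.62, difference -1.03) and MRPL50 (5.15 and 4.15) were at least 2-fold lower. MRPL32 is trimmed by a mitochondrial protease before it joins the ribosome. MRPL50 lay at the limit. Its difference, and those of MRPL22, MRPL38, MRPL4, MRPS2 and MRPL32 between -1.03 and -1.01, differed from the limit by less than the spot SD. On the other side of the limit, MRPS12, MRPS26, MRPS7, MRPL20, MRPL17 and MRPS18C, from -0.97 to -0.93, were also within the spot SD of it.

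**Figure D2:**
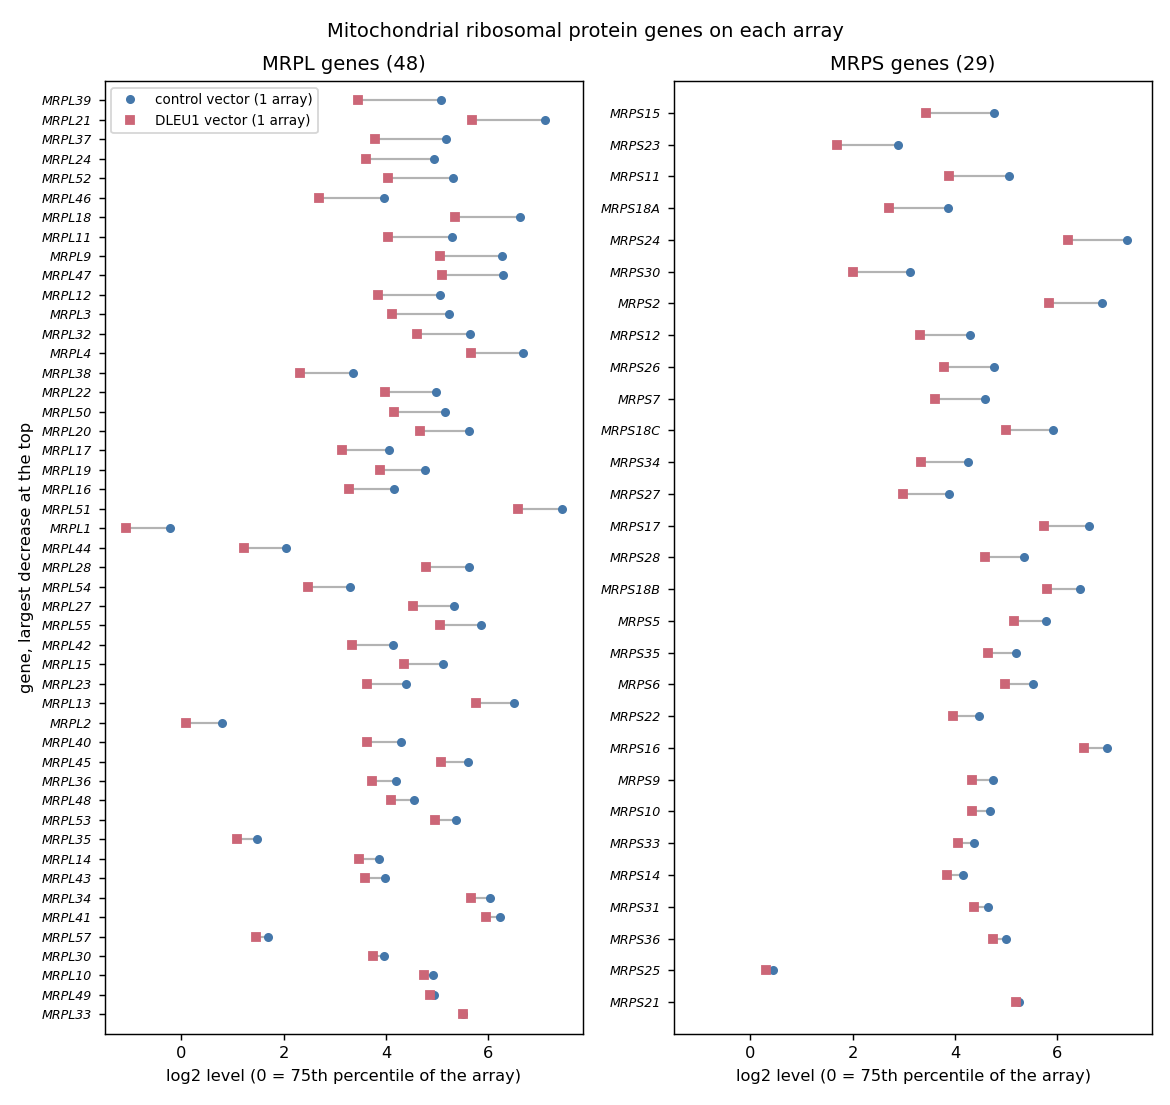
Level of each MRP gene on each array, as log2 signal relative to the array's 75th percentile (x axis), for 48 MRPL genes (left) and 29 MRPS genes (right), ordered by difference with the lowest at the top; circles are the control vector, squares the DLEU1 vector, 1 array each. Squares lie to the left of circles for 76 of 77 genes, from MRPL39 (5.07 and 3.45) down to MRPL33, where both symbols meet at 5.51.

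Among MRPS genes, 7 of 29 (24.1%) were at least 2-fold lower, against 9.78% of all genes. The median was -0.76, and all 29 were below 0. The lowest was MRPS15, a platform protein and homologue of a bacterial rRNA-binding protein, at 4.77 and 3.43, a difference of -1.33. Its probe, printed above, stood on the array 10 times, and the spots gave differences from -1.37 to -1.27 with an SD of 0.031. MRPS23 stood at 2.88 and 1.69, a difference of -1.20, with single spots from -1.34 to -1.03 (SD 0.10). MRPS11, also of the platform, stood at 5.05 and 3.87, a difference of -1.17.

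MRPS24 lies at the mRNA entry and stood at 7.35 and 6.21, a difference of -1.14. MRPS12, at the decoding centre, stood at 4.30 and 3.33, a difference of -0.97, and was the nearest gene outside the limit. MRPS5, also at the mRNA entry, gave -0.63 (5.78 and 5.15). MRPS2, a homologue of a bacterial small subunit protein, stood at 6.87 and 5.85, a difference of -1.02.

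Of the head of the small subunit, 7 genes were grouped, with a median of -0.34 and none at least 2-fold lower. MRPS24, described above and at least 2-fold lower, also lies in the head, as do DAP3 (-0.75) and PTCD3 (-0.81), so the absence of lower genes holds only for the 7 as grouped. MRPS7 came nearest, at 4.58 and 3.61, a difference of -0.97. The others ran from -0.55 (MRPS35) to -0.29 (MRPS31), with MRPS9 at -0.41, MRPS10 at -0.34, MRPS33 at -0.32 and MRPS14 at -0.32. The groups by place in the ribosome were drawn up after the values were known. Beside their counts, 9.78% of all genes were at least 2-fold lower. The counts of these groups moved with the processing. Over 13 alternatives the genes at least 2-fold lower ran from 1 to 2 in the stalk, from 0 to 3 in the peptidyl transferase core and in the mRNA entry and decoding group, and from 1 to 5 at the exit. They ran from 3 to 7 in the central protuberance, from 1 to 4 on the platform and from 0 to 1 among the 7 head genes.

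The MRPS18 family holds 3 homologues of a single bacterial protein, in different places of the mitoribosome. MRPS18A stood at 3.87 and 2.71 (difference -1.16), MRPS18C at 5.92 and 4.99 (difference -0.93) and MRPS18B at 6.45 and 5.79 (difference -0.66). Structures place MRPS18A, and likewise MRPS30 (3.13 and 2.02, difference -1.11), in the large subunit in spite of their names. MRPS36 (4.99 and 4.74, difference -0.26) is now assigned to the oxoglutarate dehydrogenase complex. With these 3 moved or left out, the gap between the large and small subunit medians was -0.14, and by gene name it was -0.07. The gap by gene name was below 0 in every other setting, down to -0.14 with loess, but 0.00018 with the 100 neighbouring spots as a local baseline. The gap after moving the 3 genes was not recomputed in that setting.

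Homologues of bacterial proteins and mitochondria-specific proteins were both lower. The 47 with a bacterial homologue had a median of -0.87 and 16 (34.0%) at least 2-fold lower. The 30 without it had a median of -0.78 and 8 (26.7%) at least 2-fold lower. Of all genes 9.78% were.

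The smallest differences were those of MRPL33, MRPS21 and MRPL49. MRPL33, a small protein homologous to a bacterial one, stood at 5.51 on both arrays. MRPS21, of the platform, stood at 5.26 and 5.19. MRPL49, which is mitochondria-specific, stood at 4.94 and 4.87. All 3 were within the spot SD, and they turned sign between scalings, as did MRPL10. Among the next were MRPS25 (0.45 and 0.30), MRPL30 (3.96 and 3.75), MRPL57 (1.71 and 1.46) and MRPL41 (6.23 and 5.96), with differences from -0.27 to -0.15. MRPS16 (6.97 and 6.52, difference -0.44) had the only spot of its probe in the strip. Its other probe, outside the strip, stood at 3.52 and 2.98 (difference -0.54). The brighter probe gave 0.071 once neighbouring spots were taken off.

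Of the 77 genes, 60 had a single probe and 17 had several. In 15 genes, 16 pairs of detected probes could be compared, with a median gap of 0.14 between their differences and 10 gaps under 0.2. No pair differed in direction. The probes of MRPS18B gave -0.66 and -0.68, and those of MRPL32 gave -1.03 and -0.97, the latter sharing 25 bases. The gaps were wide in MRPL38, described above, and in MRPL19, whose 3 probes gave -0.88, -0.03 and -1.19. For MRPL9 the values were -1.22 and -0.79, and for MRPL52 -1.27 and -0.89. A further MRPS18C probe was detected only with the control vector and a further MRPS27 probe on neither array.

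**Figure D3:**
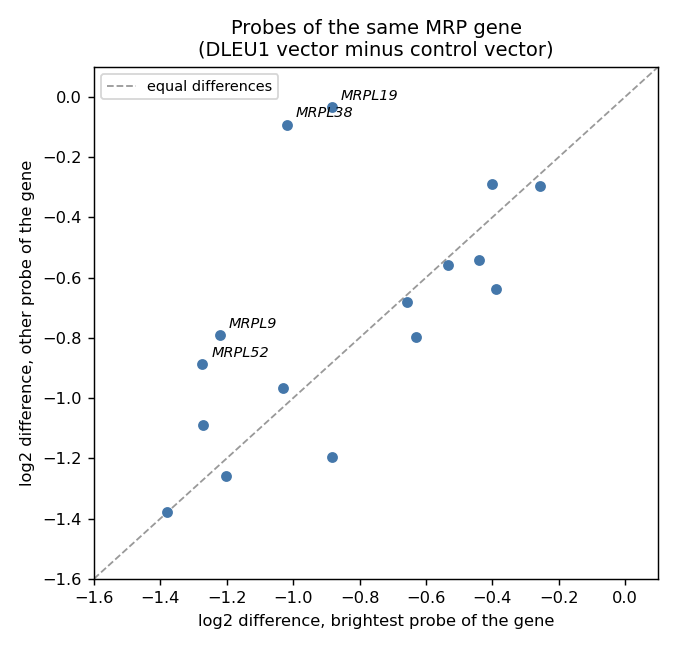
Log2 difference (DLEU1 vector minus control vector) of the brightest probe of an MRP gene on the x axis against another detected probe of that gene on the y axis, 16 pairs in 15 genes; the dashed line marks equal differences. The points follow the line with a median gap of 0.14, apart from MRPL38 and MRPL19 and, less so, MRPL9 and MRPL52.

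The genes lie on 21 chromosomes. Of the 6 chromosomes with at least 5 of them, chromosome 1 had the lowest median, -1.09, and chromosome 2 the highest, -0.40. On the first 4 of 8 were at least 2-fold lower, against 9.73% of all its genes, and on the other none of 8 was, against 10.2%. The medians on chromosomes 5, 6, 11 and 17 lay between -0.97 and -0.68.

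The promoters of the MRP genes were searched for motifs on both strands, in the 250 bases before the gene start in RefSeq's GRCh38.p14. Of the 77 genes, 68 had an entry, and 10799 genes detected on both arrays served for comparison. The ETS motif CCGGAAG, bound by factors that include GABPA, stood in 22 MRP promoters (32.4%) and in 14.9% of all. The 22 had a median difference of -0.81 with 5 at least 2-fold lower, and the 46 without it had a median of -0.88 with 18 lower. Of all 20246 genes 9.78% were at least 2-fold lower. The NRF1 motif GCATGCGC stood in 6 (8.82%) against 4.52% of all, and the E-box CACGTG in 6 (8.82%) against 8.67%. Of the 6 with the NRF1 motif 3 were at least 2-fold lower, and of the 62 without it 20 were. For the E-box these counts were 2 of 6 and 21 of 62. No motif contains another. Stretches of 150 bases before the gene start of 3 genes are printed, with the motif in capitals: MRPL47, at least 2-fold lower, and MRPL33, with no difference, both hold the ETS motif, and MRPL32 holds the NRF1 motif on the other strand. They lie at chr3:179604639-179604788 (minus strand), chr2:27771569-27771718 (plus strand) and chr7:42932226-42932375 (plus strand).
MRPL47: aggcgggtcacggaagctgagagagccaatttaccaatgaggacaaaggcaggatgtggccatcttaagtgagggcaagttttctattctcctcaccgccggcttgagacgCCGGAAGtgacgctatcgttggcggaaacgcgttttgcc
MRPL33: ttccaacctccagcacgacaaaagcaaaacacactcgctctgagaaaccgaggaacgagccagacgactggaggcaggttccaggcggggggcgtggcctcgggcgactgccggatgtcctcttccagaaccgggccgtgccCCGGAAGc
MRPL32: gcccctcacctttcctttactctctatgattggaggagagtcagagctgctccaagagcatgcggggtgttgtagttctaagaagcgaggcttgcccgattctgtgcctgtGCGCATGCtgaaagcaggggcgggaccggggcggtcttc

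Mitoribosomal proteins whose names do not start with MRP were lower as well. All 6 were below 0, against 54.2% of all genes, with a median of -0.88. At least 2-fold lower were 2, or 33.3%, against 9.78% of all genes (1 to 6 over the alternatives). GADD45GIP1 stood at 5.34 on the control array with a difference of -1.35, and ICT1, a peptidyl-tRNA hydrolase built into the large subunit, stood at 7.11 and 5.86 (difference -1.25). DAP3, of the small subunit, gave -0.75 (7.28 and 6.53).

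Of 15 mitochondrial translation factors, 13 were below 0, against 54.2% of all genes, and the median was -0.85. At least 2-fold lower were 2, or 13.3%, which is near the share of all genes (9.78%), and over the alternatives 1 to 10 were. SLIRP, which holds mitochondrial mRNA together with LRPPRC, stood at 7.47 and 6.05 (difference -1.42). The release factor MTRF1L stood at 3.01 and 1.86 (difference -1.15). The initiation factor MTIF3 was the highest of the list, at 3.40 and 3.84 (difference 0.44).

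Of 24 genes for assembly of the mitoribosome, 5 (20.8%) were at least 2-fold lower, against 9.78% of all genes. The median of the list was -0.65, and 1 gene was at least 2-fold higher, against 9.18% of all genes. C1QBP stood at 7.78 and 6.01 (difference -1.76). The rRNA methyltransferases MRM1 and MRM2, the latter listed as FTSJ2, gave -1.46 and -1.51. The GTPase MTG1 gave -1.36 and MTERF3 gave -1.15. NGRN, which takes part in making the large rRNA, was the higher gene, at 3.67 and 4.90 (difference 1.23). It did not pass the limit with spike-in scaling or as the mean over its detected probes. The count of lower genes ran from 4 to 14 over the alternatives.

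All 18 genes for upkeep and expression of mitochondrial DNA were below 0, against 54.2% of all genes, and their median was -0.65. At least 2-fold lower were 4, or 22.2%, against 9.78% of all genes (2 to 9 over the alternatives). The polynucleotide phosphorylase PNPT1 stood at 4.09 and 2.45 (difference -1.64). The mitochondrial RNA polymerase POLRMT stood at 3.58 and 2.38 (difference -1.19). The helicase TWNK, listed as C10orf2, gave -1.06, and TFB2M, a transcription factor of mitochondria, gave -1.02. MTERF1 had the highest value, -0.04.

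Among the regulators of mitochondrial biogenesis, 7 of 8 were detected on both arrays, and PPARGC1A on neither. Of the 7, 6 were below 0, against 54.2% of all genes, and the median was -0.71. The coactivator PPRC1 was the single gene past the limit, at 4.06 and 2.62 (difference -1.44). That is 14.3% of the 7, against 9.78% of all genes, and 1 to 4 were lower over the alternatives. GABPB1 gave -0.86, PPARGC1B -0.80, NRF1 -0.71, MYC -0.48 and ESRRA 0.56, and GABPA stood at 2.43 and 2.42.

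The mRNAs encoded by mitochondrial DNA, which the mitoribosome translates, were above 0 for most probes. Of 13 such genes 11 had a probe under these names, 7 above 0 and 4 below (54.2% of all genes were below 0), with a median of 0.47. None was at least 2-fold higher, against 9.18% of all genes, although 1 was with quantile normalization or loess. At least 2-fold lower were 2 (18.2%), against 9.78% of all genes. ATP8 stood at 5.73 and 6.58, the highest difference at 0.86, followed by CYTB at 7.56 and 8.28. ND6, the one encoded on the other strand, stood at 2.76 and 1.58 (difference -1.18), and ND1 at 4.75 and 3.69 (difference -1.06). The file places the COX1 probe (0.42) on chromosome 1, so it may not read the mitochondrial gene. The list was drawn up after the values were known, and its median ran from 0.069 with spike-in scaling to 0.75 with loess.

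**Figure D4:**
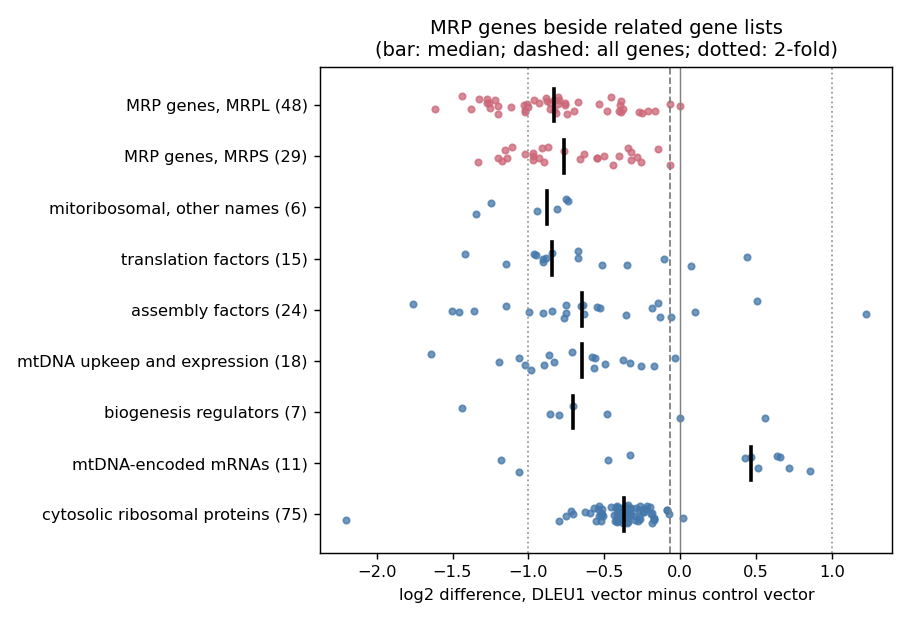
Log2 difference, DLEU1 vector minus control vector (x axis), with 1 point per gene, for the MRPL and MRPS genes (red) and related lists (blue); black bars are medians, the dashed line is the median of all genes and dotted lines mark 2-fold. MRPL (-0.83) and MRPS (-0.76) medians lie left of the cytosolic ribosomal proteins (-0.37), and the mitochondrially encoded mRNAs have a median of 0.47.

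Cytosolic ribosomal proteins and nuclear subunits of oxidative phosphorylation were set beside the MRP genes as the gene sets most like them. Of 75 cytosolic genes, 74 were below 0, against 54.2% of all genes, and the median was -0.37. A single gene (1.33%) was at least 2-fold lower, a smaller share than the 9.78% of all genes. This was RPL27A on a dim probe (-1.35 and -3.55), named here after its value was seen. Of 75 oxidative phosphorylation genes, 70 were below 0, the median was -0.45 and 4 passed the limit downwards. That is 5.33%, also a smaller share than the 9.78% of all genes. The 4 were SDHB (-1.48), ATP5G1 (-1.39), CYC1 (-1.15) and SDHD (-1.10). Over the alternatives the median ran from -0.77 to -0.086 for the cytosolic genes, with 0 to 6 at least 2-fold lower, and from -0.85 to -0.21 for the oxidative phosphorylation genes, with 2 to 25. With 1 array per group the gaps to the MRP median of -0.83 could not be tested.

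**Figure D5:**
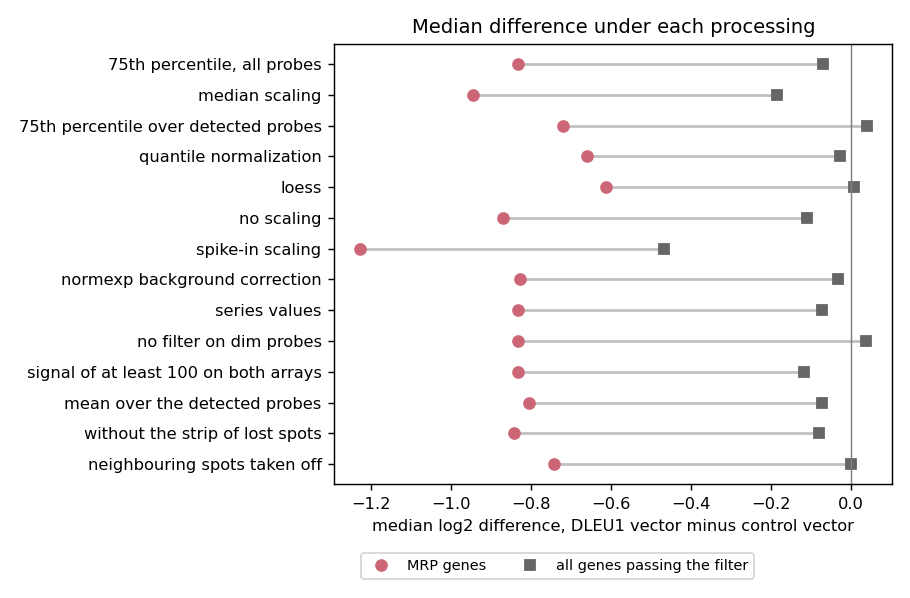
Median log2 difference (x axis), DLEU1 vector minus control vector, of the MRP genes (circles) and of all genes passing the filter (squares) under each processing (y axis). The MRP median lies between -1.23 and -0.61, below the median of all genes in each.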

How the data were processed

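RNA from Ca9-22 cells with a DLEU1 or a control vector was hybridised to 2 Agilent SurePrint G3 arrays, 1 per group. The deposited files hold scanner intensity from Feature Extraction 10.7.3.1, background-subtracted and detrended by the authors' software, not scaled between arrays. The deposited series table holds the same intensity rounded. The authors analysed the arrays in GeneSpring. Probe positions were those of the files (hg19).

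Spots marked as outliers (84 and 103 of 62976) were left out, spots of a probe averaged, and log2 intensity was centred on each array's 75th percentile over 58201 non-control probes (7.92 and 7.88). A gene took its brightest probe well above background on both arrays. Of these genes 20246 remained. No MRP spot was saturated. The number of arrays limits the precision.

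The members, lists and alternatives were chosen with earlier results of these data known, and the groups by place in the ribosome and the mitochondrially encoded list after the values were seen. Named were DLEU1, MRP genes at least 2-fold different, the 5 lowest and 5 highest of each name series, probes that disagreed, the MRPS18 family and, per list, genes at least 2-fold different or else the extremes. Further members were named to fill the groups by role and the list of regulators. Other scalings, background, filters, thresholds, probe rules and spot corrections were tried (loess span 0.3, limma 3.58.1 normexp offset 50). Scripts used Python 3.11.15 and were tested on simulated data.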

Additional observations from a re-analysis of the deposited data

How the results depend on the processing

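Across 15 alternatives no MRP gene was at least 2-fold higher, and the MRP median stayed below 0 and below that of all genes wherever it was recomputed. The count at least 2-fold lower was 10 with quantile normalization, 10 with loess and 51 with spike-in scaling, from 8 probes. A 1.5-fold threshold gave 51 (66.2%), against 22.0% of all genes. A 3-fold threshold gave 1 (1.30%), a smaller share than the 3.31% of all genes. Elsewhere it lay between 17 and 32. Loess gave a median difference of -0.61, quantile normalization -0.66, scaling on the 75th percentile of detected probes -0.72, neighbouring spots taken off -0.74, median scaling -0.94 and spike-in scaling -1.23. These scalings moved the median of all genes too, by -0.11, 0.11 and -0.40 for median, detected-probe and spike-in scaling. The MRP median minus that of all genes was -0.63 with quantile normalization, -0.62 with loess and -0.87 with no filter on dim probes. The gap between large and small subunit turned to 0.00018 with neighbouring spots taken off, and the cause was not tested. Of 1001 gene values under 13 alternatives, 579 stayed within the spot SD and 15 changed sign, in MRPL10, MRPL33, MRPL49, MRPS16 and MRPS21. Placing MRPS18A and MRPS30 in the large subunit and leaving out MRPS36 was added after seeing the data. No paired analysis was possible because each group has 1 array. In the strip of columns 36 to 40 on the DLEU1 array, 43.1% of lit spots were lower against 12.8% outside, and 2 MRP genes had a spot there. Spread between cultures cannot be estimated, and depth does not apply to arrays.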
